A study of Mus musculus with 7 samples.

Results

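The genes described here encode surface proteins that place cells along the intestinal crypt or mark its secretory cells. They were chosen by name: Cd24a, Kit, Ephb2, Ephb3, Ephb4, Efnb1, Efnb2, Muc13, Cd44 and Epcam. Of these 10 genes, 9 had a named probe set among the 19938 genes of the array, and Ephb2 was not analysed here. Each of the 9 was read by 1 transcript cluster (a probe set that covers a whole gene). All 9 passed the filter on low values, which left 13409 genes for testing.

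The arrays hold total RNA from Paneth cells, the antimicrobial secretory cells of the crypt base, isolated from mice by flow cytometry. Mice aged 4 months ate freely (ad libitum, 3 arrays) or received 60% of those calories (calorie restricted, 4 arrays), for between 4 and 7 weeks. Neither group carries a stated genotype, strain or transgene, and the labels call the arrays biological replicates without saying whether 1 sample pooled several mice. The isolation is given only as a published method, so the antigens of the sort are not stated in the sources used here. CD24 is a surface antigen widely used to sort Paneth cells, so a Cd24a level in sorted cells is no finding by itself. Values are log2 expression as deposited. Array medians were 7.24 to 7.29 on calorie restricted replicates 1, 2 and 3 and ad libitum replicate 1. They were 7.42 to 7.44 on calorie restricted replicate 4 and ad libitum replicates 2 and 3. No level of 1 gene is set against that of another, because probes differ in brightness.

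Eph receptors are receptor tyrosine kinases that bind membrane-anchored ephrins on neighbouring cells, so that contact drives repulsion or adhesion. In the mouse intestine, Wnt signalling at the crypt base raises EphB receptors, ephrin-B ligands are more abundant toward the villus, and EphB3 is needed to keep Paneth cells at the base. KIT is the receptor for stem cell factor and, with CD24, marks secretory cells of the crypt base. CD44 binds hyaluronan, MUC13 is a transmembrane mucin of the apical surface, and EpCAM is an adhesion protein of intestinal epithelial cells.

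The RefSeq table holds promoter windows for 9 of the 10 genes, Cd24a being the exception. The sequences below are the 250 bases before a transcript start (build GRCm38.p6), 5′ to 3′ on the strand of the gene. Kit, Muc13, Ephb3 and Ephb4 are shown because their levels over the arrays are set beside marker lists further on, and Efnb1 because its arrays separated by diet. Capitals mark matches, on either strand, to the GC box GGGCGG, the TCF/LEF core CTTTGA or the E-box CAGCTG, which can bind ATOH1.
Kit (chr5:75574737-75574986, plus strand): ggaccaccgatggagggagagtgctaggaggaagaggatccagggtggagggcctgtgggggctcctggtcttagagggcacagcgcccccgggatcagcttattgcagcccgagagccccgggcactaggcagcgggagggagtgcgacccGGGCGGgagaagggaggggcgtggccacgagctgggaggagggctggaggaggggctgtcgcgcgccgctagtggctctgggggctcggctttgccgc
Muc13 (chr16:33794239-33794488, plus strand): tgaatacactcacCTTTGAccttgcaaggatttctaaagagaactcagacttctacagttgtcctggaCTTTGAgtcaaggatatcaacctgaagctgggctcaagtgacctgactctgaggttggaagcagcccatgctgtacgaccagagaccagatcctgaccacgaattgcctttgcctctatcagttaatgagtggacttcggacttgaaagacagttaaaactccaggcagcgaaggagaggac
Ephb3 (chr16:21204545-21204794, plus strand): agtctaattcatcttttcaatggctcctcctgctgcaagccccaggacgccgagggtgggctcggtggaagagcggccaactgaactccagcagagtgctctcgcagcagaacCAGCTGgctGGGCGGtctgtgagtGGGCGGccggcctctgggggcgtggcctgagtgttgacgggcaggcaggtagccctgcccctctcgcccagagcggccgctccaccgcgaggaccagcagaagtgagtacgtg
Ephb4 (chr5:137349859-137350108, plus strand): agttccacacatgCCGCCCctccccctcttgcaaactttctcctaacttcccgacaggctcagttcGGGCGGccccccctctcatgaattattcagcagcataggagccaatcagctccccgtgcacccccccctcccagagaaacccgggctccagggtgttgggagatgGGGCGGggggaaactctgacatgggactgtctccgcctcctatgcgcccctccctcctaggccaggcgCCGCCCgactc
Efnb1 (chrX:99135811-99136060, plus strand): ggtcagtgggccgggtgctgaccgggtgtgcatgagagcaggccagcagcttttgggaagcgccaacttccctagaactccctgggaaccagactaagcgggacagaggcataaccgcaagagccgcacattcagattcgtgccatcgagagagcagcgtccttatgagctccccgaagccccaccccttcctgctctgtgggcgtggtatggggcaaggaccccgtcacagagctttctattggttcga

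No motif was in all 5 windows. The search covered 6 motifs, which also included the SOX site AACAAT, the TATA box TATAAA and the MITF site CACGTG. The Muc13 window held the TCF/LEF core 2 times, and 13.8% of all 32851 windows held it at least once. A second Muc13 window, farther upstream, had no match to any of the 6 motifs. The Ephb3 window held CAGCTG 1 time (13.0% of all windows) and the GC box 2 times. The Kit window held the GC box 1 time and that of Ephb4 4 times, against 32.7% of all windows with a match, while Efnb1 had none. The windows also differed in base composition, from 47.6% G and C for the Muc13 window to 70.8% for that of Kit (median of all windows 52.4%). A match is a description of letters only.

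Markers of Paneth cells and of other cells were read first. Of 14 measured Paneth markers, all passed the filter, and the lysozyme gene Lyz1 lay at 14.31 ± 0.04 under calorie restriction and 14.31 ± 0.02 under ad libitum feeding (mean ± SD, n = 4 and n = 3 here and below). Correlations between arrays, across clusters, ran from 0.974 to 0.995. Calorie restricted replicate 4 stood apart in the mean of the Paneth markers, at 12.67 against 12.89 to 13.04 on the other 6 arrays. Markers of other epithelial cells were present too. All measured enterocyte (28), goblet (9), stem and proliferating (12) and tuft cell (9) markers also passed the filter. Passing it therefore does not tell Paneth cells from these. The enterocyte list mean was 11.59 to 11.80 under calorie restriction and 10.24 to 10.84 under ad libitum feeding. All 28 measured enterocyte markers were positive in the diet comparison and 12 were called (limma, adjusted p below 0.05). The list was chosen with earlier results of these data known, so these counts describe its genes and are no independent evidence. The largest called difference was that of Cyp3a11, a cytochrome P450 that metabolizes drugs, at 11.13 ± 0.54 against 8.39 ± 0.78. Over all the other lists, 13 genes were called higher and 0 lower. The count of 13 fell to 3, 3, 2 and 7 without calorie restricted replicates 1, 2, 3 and 4. It was 12, 9 and 12 without ad libitum replicates 1, 2 and 3. An ordinary linear model gave 0, as it did over all genes tested.

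The comparison of diets asked whether calorie restriction changes these surface genes in Paneth cells. None of the 9 genes was called in either direction (limma, adjusted p below 0.05), where 0.664% of all genes tested were called. An ordinary linear model called 0 of all genes tested, so its 0 among the 9 says nothing about them. At an unadjusted p below 0.05 there was 1 of 9, Efnb1, where 9.3% of all genes tested fell below it. Each difference below is the calorie-restricted mean less the ad libitum mean, in log2 units, ± its standard error (SE) in limma. Of the 9 differences, 3 were positive and 6 negative, with a median of -0.02, and the median over all genes tested was 0.01. In the main fit, the 95% intervals of all 9 excluded a 2-fold change either way, and those of 8 excluded a 1.5-fold change, Kit being the exception. Under some alternatives the intervals of Cd44, Efnb1 and Efnb2 reached past 1.5-fold as well.

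**Figure D1:**
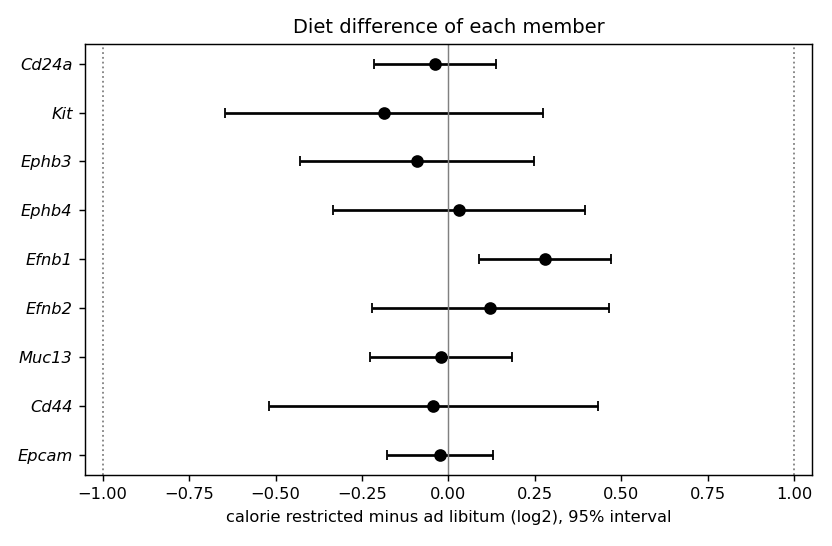
Diet difference of each gene (horizontal axis, calorie restricted minus ad libitum, log2) with its 95% interval from limma. Dotted lines mark a 2-fold change, which all 9 intervals exclude. Only the interval of Efnb1 (0.09 to 0.47) leaves out 0, before adjustment over all genes.

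Among the EphB receptors, Ephb3 is the one known for holding Paneth cells at the crypt base in mice. Ephb3 read 10.94, 11.08, 11.23 and 10.92 under calorie restriction (replicates 1 to 4, an order kept below) and 11.43, 11.16 and 10.81 under ad libitum feeding (replicates 1 to 3). The highest and the lowest array were both ad libitum, so the diets overlapped, with every calorie-restricted array between those ends. The difference was -0.09 ± 0.15 (limma, adjusted p = 0.906), with a 95% interval from -0.43 to 0.25. It was 0.06 without ad libitum replicate 1 and -0.25 without ad libitum replicate 3.

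Ephb4, a receptor for ephrin-B2 best known from blood vessels, lay at 10.30, 10.30, 10.13 and 10.59 under calorie restriction. The ad libitum arrays read 9.98, 10.56 and 10.36. Again the diets overlapped, and ad libitum replicate 1, the highest array for Ephb3, was the lowest for Ephb4. The difference was 0.03 ± 0.16 (limma, adjusted p = 0.972), with an interval from -0.33 to 0.39. Its sign depended on the setting, at -0.06 without calorie restricted replicate 4 and -0.13 without ad libitum replicate 1, and it was 0.16 without ad libitum replicate 2. Of 10 endothelial markers 6 passed the filter, and the list means were 6.65 to 6.83 under calorie restriction and 6.78 to 6.91 under ad libitum feeding. Esam, an endothelial adhesion gene, lay at 8.40 ± 0.28 and 8.49 ± 0.14 in these groups and Vwf, the von Willebrand factor gene, at 7.55 ± 0.04 and 7.63 ± 0.17. Their part in the Ephb4 values was not tested.

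Of the ephrin-B ligands, Efnb1 (ephrin-B1) and Efnb2 (ephrin-B2) differed in whether the diets overlapped. Efnb1 read 9.65, 9.50, 9.57 and 9.61 under calorie restriction. Under ad libitum feeding it read 9.29, 9.24 and 9.38. Every calorie-restricted array lay above every ad libitum array, a pattern shown by 1 of the 9 genes and by 10.2% of all genes tested, so that 1 of 9 is near the background. The means were 9.58 ± 0.06 and 9.30 ± 0.07, a 1.21-fold difference (95% interval 1.06 to 1.38). The difference was 0.28 ± 0.08 and did not pass over all genes (limma, adjusted p = 0.276). The exact two-sided permutation test over all 35 ways to divide the arrays gave p = 0.0286, the smallest it can give, and 9 such tests were run. Over 16 alternatives, some of which cannot change a difference, it lay between 0.25 and 0.37. The adjusted p of Efnb1 in limma lay between 0.0418 and 0.813. The only value below 0.05 came from array weights, a setting that called 963 genes higher and 392 lower of all 13409 tested. The enterocyte markers moved with the diets in the same direction (list means 11.59 to 11.80 against 10.24 to 10.84), and their part in the Efnb1 difference was not tested. In bulk RNA, more cells of a type and more RNA per cell cannot be told apart.

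Efnb2 read 8.56, 8.31, 8.15 and 8.66 under calorie restriction and 8.23, 8.15 and 8.51 under ad libitum feeding. The lowest arrays of both diets were at the same level and the diets overlapped. The difference was 0.12 ± 0.15 (limma, adjusted p = 0.872), and 0.04 without calorie restricted replicate 4.

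Secretory cell markers came next. Kit read 11.81, 12.17, 12.11 and 11.36 under calorie restriction and 12.24, 12.10 and 11.80 under ad libitum feeding. Calorie restricted replicate 4 was the lowest array, and the other 6 spanned 11.80 to 12.24 with both diets interleaved. The difference was -0.19 ± 0.20 (limma, adjusted p = 0.856), with an interval from -0.65 to 0.27, and it was -0.02 without calorie restricted replicate 4. Kit is also expressed by mast cells and by the interstitial cells of the gut wall. Of 10 mast cell markers 2 passed the filter, the tryptase gene Tpsb2 at 6.92 to 7.64 and the histidine decarboxylase gene Hdc at 6.91 to 7.15, and the list means were 5.55 to 5.73. Ano1, a chloride channel gene used to mark interstitial cells, lay between 7.43 and 7.92. Markers of other crypt cells were present as well. Their list means over both diets were 12.53 to 12.78 for goblet, 9.91 to 10.76 for enteroendocrine and 8.24 to 9.30 for tuft cells. The part of any of these cells in the Kit values was not tested.

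Cd24a read 13.42, 13.44, 13.44 and 13.20 under calorie restriction and 13.45, 13.37 and 13.43 under ad libitum feeding. All arrays but calorie restricted replicate 4 lay within 13.37 and 13.45. The difference of -0.04 ± 0.08 (limma, adjusted p = 0.924) was 0.02 without that array.

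Muc13 read 13.24, 13.30, 13.35 and 13.07 under calorie restriction and 13.40, 13.21 and 13.18 under ad libitum feeding. Its lowest array was again calorie restricted replicate 4, and its highest was ad libitum replicate 1. The difference was -0.02 ± 0.09 (limma, adjusted p = 0.965), 0.04 without calorie restricted replicate 4 and 0.05 without ad libitum replicate 1.

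Of the general adhesion genes, Cd44 read 10.10, 9.37, 9.76 and 10.10 under calorie restriction and 9.59, 9.86 and 10.18 under ad libitum feeding. Arrays of both diets were found at each end of its 1.75-fold range. The difference was -0.04 ± 0.21 (limma, adjusted p = 0.969), 0.11 without calorie restricted replicate 2 and 0.11 without ad libitum replicate 3. Cd44 is also a lymphocyte gene. Of 10 measured T cell markers 3 passed the filter, with list means of 6.44 to 6.64 over both diets. Epcam varied least, reading 12.42, 12.39, 12.39 and 12.27 under calorie restriction and 12.45, 12.35 and 12.39 under ad libitum feeding. Its difference was -0.02 ± 0.07 (limma, adjusted p = 0.944), with an interval from -0.18 to 0.13.

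**Figure D2:**
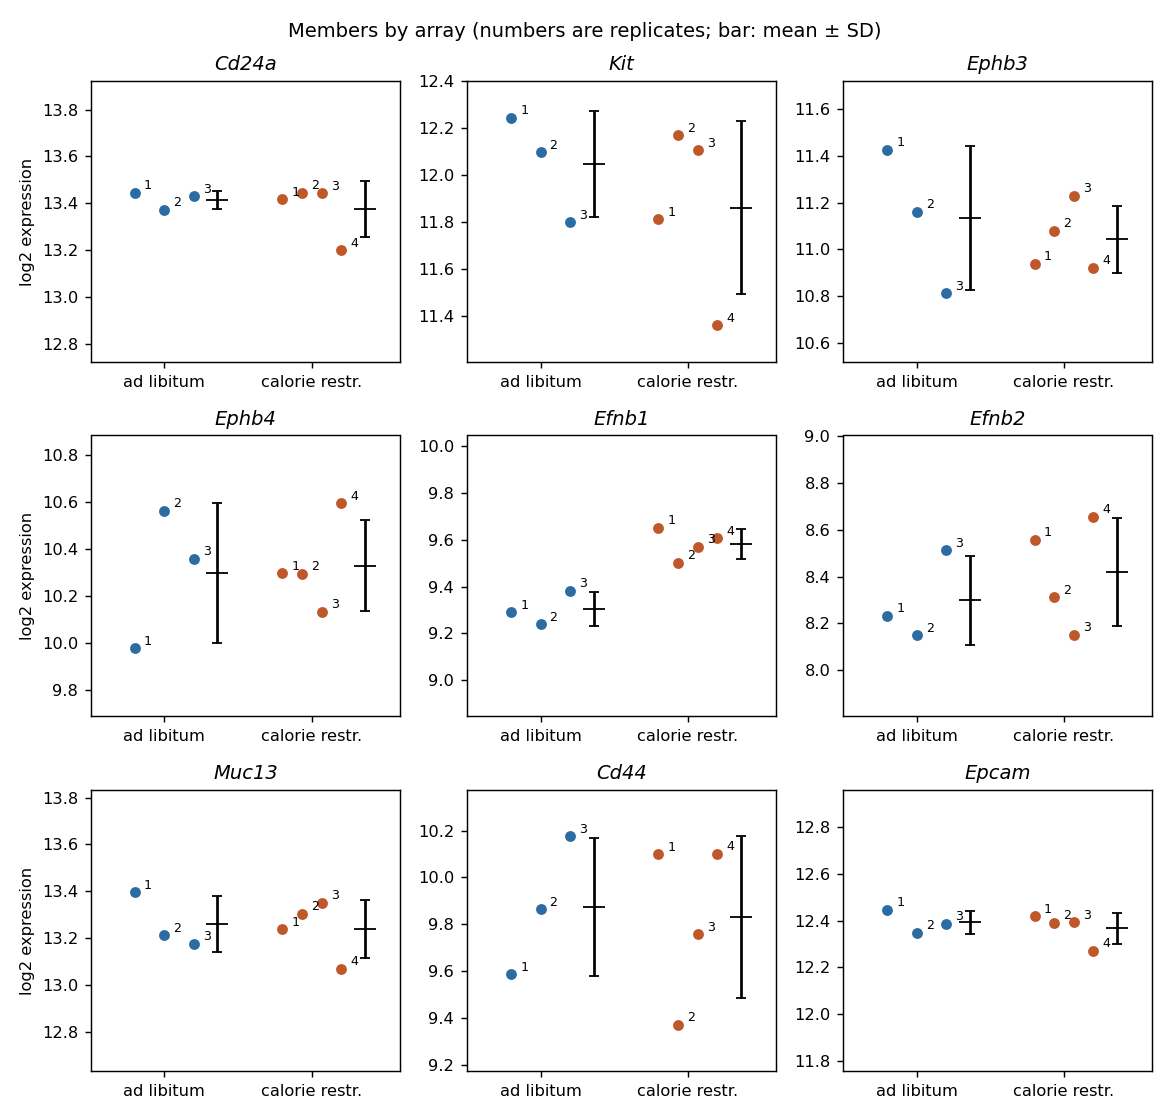
Log2 expression (vertical axes, 1.2 log2 units high in every panel) of each gene on the 3 ad libitum arrays (blue) and the 4 calorie-restricted arrays (orange), numbered by replicate, with the mean and SD of each diet in black. The diets overlap for all genes but Efnb1, and calorie restricted replicate 4 is the lowest array for Kit, Cd24a, Muc13 and Epcam.

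The genes differed in how much they varied between arrays of the same diet. The within-diet SD was 0.33 for Cd44 and 0.32 for Kit, larger than for 89.6% and 89.2% of all genes tested. Ephb4 (0.24), Ephb3 (0.22) and Efnb2 (0.21) were above 78.9%, 75.7% and 73.6% of genes. Muc13 (0.12), Cd24a (0.10), Efnb1 (0.07) and Epcam (0.06) lay below the median of all genes, 0.15. Efnb1, the gene with separate diets, thus had one of the smaller spreads within diets, with 7.33% of genes below it.

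Relations between the genes over the arrays were examined next. Of the 36 pairs among the 9 genes, 13 had an unadjusted p below 0.05 in the exact two-sided permutation test of Pearson's r over all 5040 pairings of the 7 arrays, and 0 passed after Benjamini-Hochberg adjustment over the 36. No relation between 2 of the genes is therefore called, and the values of a few describe these arrays only. For Kit and Muc13 the correlation was positive (r = 0.896, exact p = 0.00575, adjusted p = 0.0667, and Spearman's rho = 0.929, exact p = 0.00675, adjusted p = 0.0607). Without the arrays farthest from the median of Kit (calorie restricted replicate 4 and ad libitum replicate 3), r was 0.650. For Kit and Cd44 it was negative (r = -0.769, exact p = 0.0347, adjusted p = 0.131, and rho = -0.929, exact p = 0.00675, adjusted p = 0.0607), with r = -0.838 without those arrays. Within diets these values were 0.917 and -0.841. The points share the whole array, so anything that shifts many genes on 1 array enters each of them.

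The genes were also set beside 2 marker lists, picked from 13 cell type lists after the values had been seen. The mean of the Paneth markers was 12.91, 13.02, 13.04 and 12.67 under calorie restriction and 13.02, 12.95 and 12.89 under ad libitum feeding. The mean of 12 stem and proliferating cell markers was 10.99, 10.73, 10.63 and 11.16 under calorie restriction and 10.20, 11.06 and 11.14 under ad libitum feeding. Calorie restricted replicate 4 was lowest in the first and highest in the second, and ad libitum replicate 1 was lowest in the second. Neither list separated the diets. The cell cycle marker Mki67, named after its values were seen, ran from 10.10 in ad libitum replicate 1 to 11.60 in calorie restricted replicate 4. The stem cell markers Lgr5 and Olfm4, also named after their values were seen, were both lowest in ad libitum replicate 1 (10.41 and 13.26). In calorie restricted replicate 4, Lgr5 was at its lowest for that diet (10.88) and Olfm4 at its highest (13.58).

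Of 18 relations between the 9 genes and the 2 list means, 6 had an adjusted p below 0.05 (Benjamini-Hochberg over the 18, exact two-sided permutation test of r, 7 arrays). Because the lists were picked with the values in view and the adjustment leaves out the other lists, these p-values describe the arrays and are no independent evidence. For Kit and the Paneth mean the correlation was positive (r = 0.963, exact p = 0.00337, adjusted p = 0.0170, and rho = 0.893, exact p = 0.0123, adjusted p = 0.0369). Without the most distant arrays, calorie restricted replicates 3 and 4, r was 0.946 (exact permutation p = 0.0417, unadjusted). A relation at least that strong was found for 0.380% of all genes tested. The correlation was also positive for Muc13 (r = 0.923, exact p = 0.00198, adjusted p = 0.0170, and rho = 0.929, exact p = 0.00675, adjusted p = 0.0304), with 2.00% of genes at least as strong. Without the same arrays its r was 0.887 and missed the threshold (exact permutation p = 0.05, unadjusted). Cd24a missed the threshold (r = 0.919, exact p = 0.0236, adjusted p = 0.0607, and rho = 0.750, exact p = 0.0663, adjusted p = 0.0852) and had r = 0.430 without those arrays, so it rested on them. For Efnb2 the correlation with the Paneth mean was negative (r = -0.817, exact p = 0.00833, adjusted p = 0.0300, and rho = -0.750, exact p = 0.0663, adjusted p = 0.0852). That relation did not hold after median centring of the arrays, where r was -0.272, and 12.3% of genes had one at least as strong.

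With the stem and proliferating cell mean, the correlation of Ephb4 was positive (r = 0.894, exact p = 0.00179, adjusted p = 0.0170, and rho = 0.964, exact p = 0.00278, adjusted p = 0.0250). That of Ephb3 was negative (r = -0.880, exact p = 0.0105, adjusted p = 0.0316, and rho = -0.857, exact p = 0.0238, adjusted p = 0.0429). That of Muc13 was negative as well (r = -0.907, exact p = 0.00377, adjusted p = 0.0170), and its ranks were in exactly the reverse order (exact permutation p of rho = 0.000397, adjusted p = 0.00714). Without the most distant arrays, calorie restricted replicate 3 and ad libitum replicate 1, r was 0.612 for Ephb4, -0.506 for Ephb3 and -0.858 for Muc13. None of the 3 passed then (exact permutation p = 0.242, 0.408 and 0.0583, unadjusted). The relations of Ephb4 and Ephb3 thus rested on those arrays, while that of Muc13 kept most of its r, with fewer arrays to test it. Median centring of the arrays weakened that of Muc13 most, with r = -0.723, against 0.844 for Ephb4 and -0.902 for Ephb3. Relations at least as strong were common, at 9.73%, 11.7% and 7.91% of all genes tested. Within diets, r was 0.894, -0.884 and -0.906.

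**Figure D3:**
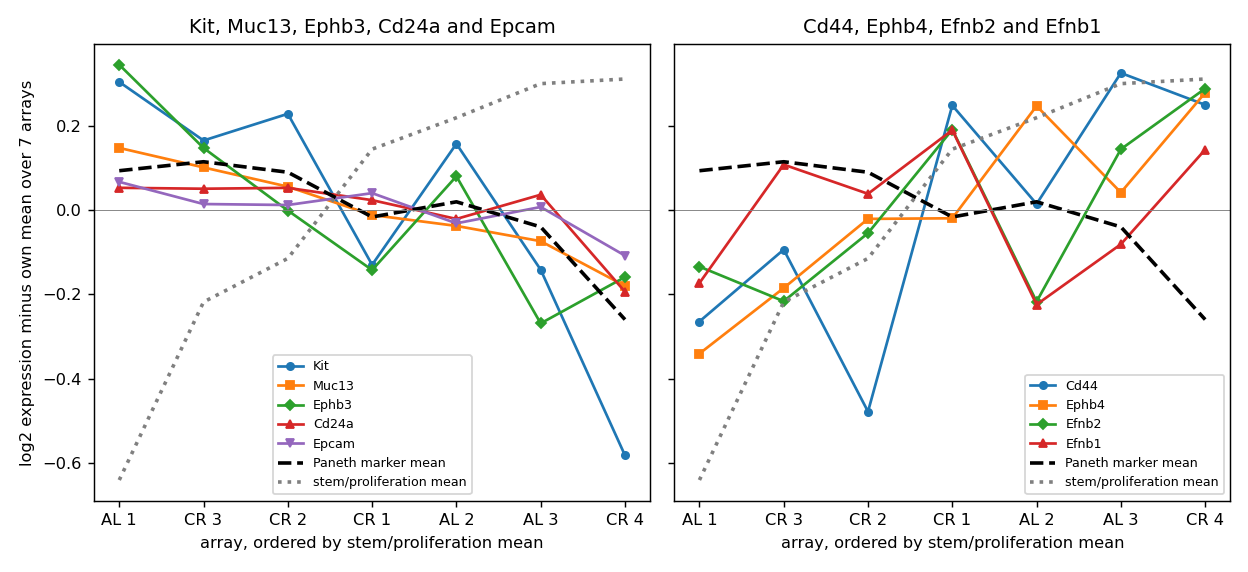
Log2 expression of each gene minus its own mean over the 7 arrays (vertical axis), with arrays ordered by the mean of the stem and proliferating cell markers (horizontal axis; AL, ad libitum; CR, calorie restricted; number, replicate). The dashed black line is the Paneth marker mean and the dotted grey line the stem and proliferating cell mean. Kit, Muc13 and Ephb3 are highest in or near ad libitum replicate 1 and low in calorie restricted replicate 4, while Ephb4 and Cd44 are low in ad libitum replicate 1 and high in calorie restricted replicate 4.

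**Figure D4:**
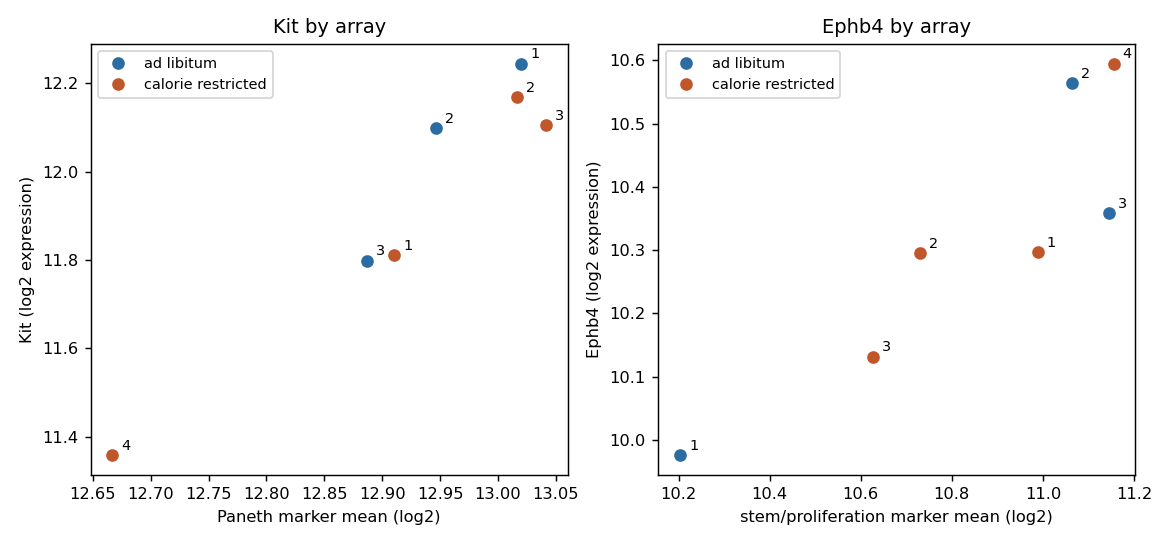
Left, Kit against the mean of the 14 Paneth markers (r = 0.963). Right, Ephb4 against the mean of the 12 stem and proliferating cell markers (r = 0.894). Each point is 1 array in log2 units, coloured by diet and numbered by replicate. Arrays of both diets are mixed along both horizontal axes.

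The genes with profiles most like these were taken as those with the smallest root mean squared difference over the 7 arrays, each gene being centred on its own mean. Being picked as the nearest of all genes tested, they lie below the median difference by construction. For Kit they were Slc25a35, a mitochondrial carrier family gene, and Slc10a5, a bile acid carrier family gene, which differed from it by 0.06 log2 units each (median of all genes 0.31). Slc25a35 read 10.53, 10.92, 10.89 and 10.27 under calorie restriction and 11.03, 10.90 and 10.58 under ad libitum feeding, in step with Kit. The closest to Ephb3 were Lrrc8c, a volume-regulated anion channel subunit, and Cdk5r1, an activator of the kinase CDK5 (0.03 each, median 0.22). For Ephb4 they were Inpp5e, a phosphoinositide phosphatase, and Atp5g2, a subunit of the ATP synthase (0.03 each, median 0.25). For Efnb2 they were Pgd, an enzyme of the pentose phosphate pathway (0.04), and the receptor kinase gene Mst1r (0.04). Cd44 had less close neighbours, at 0.09 and 0.10 (Olfr1410 and Zfp991). The other 4 genes varied by less than 0.5 log2 units and were not given neighbours.

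The rest of the Eph and ephrin family gave no call either. Of 17 other receptors and ephrins 11 passed the filter and 0 were called, with a median difference of -0.04, and 4 of the 11 had an unadjusted p below 0.05 (9.3% of all genes tested). Epha2, a receptor for ephrin-A ligands in epithelia, read 9.17, 9.03, 8.88 and 8.94 under calorie restriction and 8.62, 8.65 and 8.69 under ad libitum feeding. The diets did not overlap, but the difference of 0.35 ± 0.10 did not pass (limma, adjusted p = 0.230). Epha1 gave 0.32 ± 0.11 (limma, adjusted p = 0.352), again with separate diets, and Epha10 -0.21 ± 0.09 (limma, adjusted p = 0.506). These receptors, like Efnb1, were compared between arrays whose enterocyte markers also differed.

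Among 28 tested partners in Eph signalling, adhesion and receptor cleavage, 0 were called and the median was 0.01. The smallest p belonged to Vav3 (0.34 ± 0.15), a guanine nucleotide exchange factor, followed by the PDZ protein gene Pick1 (-0.14 ± 0.08) and the E-cadherin gene Cdh1. Cdh1 was at 12.71 ± 0.03 against 12.81 ± 0.04 (limma, adjusted p = 0.701). Of 18 crypt Wnt target genes 0 were called, with 9 positive, 9 negative and a median of -0.01. Nkd1, a feedback inhibitor of Wnt signalling, had a difference of -0.39 ± 0.33. The Wnt receptor gene Fzd5 (0.29 ± 0.18) and the cyclin gene Ccnd2 (0.22 ± 0.18) also did not pass. Across arrays Nkd1 was highest in ad libitum replicate 1 (10.64) and lowest in calorie restricted replicate 4 (9.25), the same arrays as for Kit.

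In the KIT pathway, 18 genes were tested and 0 called, with a median of 0.08. The adaptor gene Sh2b3, which restrains cytokine and KIT signalling in blood cells, was at 9.26 ± 0.07 against 9.04 ± 0.08 (limma, adjusted p = 0.481). Gab2 (0.20 ± 0.10), a docking protein, and Spred1 (0.38 ± 0.21), an inhibitor of Ras signalling, did not pass either. Of 21 tested partners of CD44, CD24 and EpCAM, 0 were called, with a median of 0.05. Spint1, an inhibitor of membrane serine proteases, had the smallest p, at 12.31 ± 0.05 against 12.03 ± 0.04 (limma, adjusted p = 0.139). Ezr, which encodes the actin linker ezrin, gave 0.23 ± 0.11, and the tetraspanin gene Cd9 -0.21 ± 0.12.

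The list of transmembrane mucins and their partners held the only called gene outside the cell type lists. Lgals3 encodes galectin-3, a lectin that binds mucin sugars and is not itself a mucin. It read 10.88, 10.46, 10.61 and 10.83 under calorie restriction and 9.82, 9.13 and 9.72 under ad libitum feeding, so the diets did not overlap. The difference of 1.14 ± 0.18 was 2.20-fold (limma, adjusted p = 0.0411). With an ordinary linear model or the replicate block Lgals3 was not called, but these settings called 0 of all genes tested. The enterocyte markers moved with it, and their part was not tested. The mucin genes themselves were not called. Muc3 had a difference of 0.36 ± 0.23 and Muc4 one of -0.31 ± 0.27. Muc4 read 9.10 in ad libitum replicate 1 and 10.11 in ad libitum replicate 3, a spread within a diet that exceeded the difference.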

How the data were processed

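Total RNA (10 ug) from sorted Paneth cells was labelled with biotin and hybridised to Affymetrix gene arrays, per the labels' protocols. The authors deposited log2 expression values for 35556 transcript clusters, and the submitters' processing notes name Affymetrix Expression Console as the software. Version, algorithm and build were not given in the sources used here. Through the platform annotation, 21789 clusters had 1 symbol, 1621 several and 12146 none. The brightest cluster of each symbol was kept, giving 19938 genes, and those whose mean over the arrays fell short of 6.79, the 40th percentile, were left out. The diets were compared over 13409 genes with limma 3.58.1 (R 4.3.3, lmFit and eBayes with a trend) and Benjamini-Hochberg adjustment at 0.05, and the fit was tested on simulated data. The number of arrays limits the precision. P-values measure the spread between these arrays, since the labels say biological replicate but name no animals. Same-numbered arrays of both diets did not deviate together (correlations -0.13, -0.27 and -0.55). Differently numbered arrays ran from -0.73 to 0.64, so these values gave no sign of pairing by number but cannot exclude it. The members and gene lists were chosen with earlier results of these data known. The genes to name were those called in a list, its 3 with the smallest p and, for cell types, its 2 with the highest mean. Profile neighbours were sought for members that ranged over at least 0.5. Alternatives covered normalization, filter, cluster choice, variance model, array weights, the replicate block and leaving out each array.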

Additional observations from a re-analysis of the deposited data

Results flagged for a closer look

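Cd24a in calorie restricted replicate 4 stood apart from its group. It read 13.20 there, below the other 3 calorie-restricted arrays, and the gap to the nearest of them was 0.88 of the group's range, above Dixon's critical value of 0.829 for 4 arrays. The 9 genes were each examined in this way in the calorie-restricted arrays and 1 stood apart, where chance flags about 1 in 20 groups. The same array had the lowest Paneth marker mean, 12.67, and the part of that in the Cd24a value was not tested.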

How the results depend on the processing

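Kit kept a negative difference, and Efnb1 and Efnb2 a positive one, under all 16 alternatives, while the other 6 genes, all with small differences, changed sign under some. The filters, the cluster choice and the variance models could not move a difference, since each gene had 1 cluster. Under those alternatives a kept sign was certain in advance. The Kit difference shrank to -0.0187 without calorie restricted replicate 4. Median centring gave 0.0473 for Cd24a, 0.066 for Muc13, 0.0432 for Cd44 and 0.0621 for Epcam, where all genes had a median of 0.10 in place of 0.01. Quantile normalization gave -0.0159 for Ephb4. Array weights gave 0.0306 for Cd24a, -0.1982 for Ephb4, 0.068 for Muc13 and 0.0257 for Epcam. The replicate block leaves calorie restricted replicate 4 without a partner, so the fit compares 3 arrays of each diet and its differences equal those without that array. They were 0.0196 for Cd24a, -0.0578 for Ephb4, 0.0363 for Muc13 and 0.0079 for Epcam. The replicate block called 0 of all genes tested, and so 0 of any list. Among the other lists, 7 genes were called higher without that array alone and 13 with all arrays and no block. Leaving out 1 array at a time gave ranges of -0.0626 to 0.0196 for Cd24a, -0.1884 to 0.1097 for Cd44, -0.0475 to 0.0079 for Epcam, -0.2512 to 0.0557 for Ephb3, -0.1311 to 0.1628 for Ephb4 and -0.0636 to 0.047 for Muc13. Array weights called 1 of the 9 genes, Efnb1 (limma, adjusted p = 0.0418), and 35 genes of the other lists higher and 5 lower. Over all 13409 genes tested, that setting called 963 higher and 392 lower, where the main fit called 88 and 1. Calls higher among the other lists were 8 after quantile normalization and 2 to 12 without 1 array. They were 0 with an ordinary linear model, which called 0 of all genes tested. The cause of these changes was not tested.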
